A study of Mus musculus with 78 samples.

Results

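Cortical excitatory neurons and the layers they sit in were followed through 9 genes: Slc17a7, Neurod6, Cux1, Cux2, Rorb, Fezf2, Tbr1, Tle4 and Nxph4. They were taken by name from a list of excitatory neuron and layer genes and not ranked by their measured values. Earlier results of these data were known when the list was chosen. All 9 were present among the 55367 genes of both deposited count tables, which hold a sex each. Each was followed through 78 bulk RNA-seq libraries from 7 dissected mouse brain regions. Levels are given as CPM, the usual scaling of a count by the total count of its library.

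The study asked how loss of Acss2, whose product turns acetate into acetyl-CoA, bears on alcohol drinking. Adult male and female mice with a CRISPR deletion spanning exons 3 to 7 of Acss2 (KO) and wild-type mice (WT) were compared. The deletion was made in C57BL6/J embryos with guides on both sides of these exons, was backcrossed for 3 generations, and is carried in the germ line, so it is not limited to neurons. All mice, KO and WT alike, were housed singly, were habituated for 1 week, and had access to 15% ethanol in the dark phase for 2 h on days 1 to 3 and for 4 h on day 4. Ethanol was offered beside water in the first week of drinking and alone in the second, and mice without access to ethanol are not part of these comparisons. There were 12 mice: male KO 1, 2 and 10, male WT 3, 12 and 13, female KO 4, 5 and 6, and female WT 11, 23 and 24. Dorsal hippocampus, ventral hippocampus, dorsal striatum and ventral striatum had 6 KO and 6 WT libraries each, amygdala and cortex 6 KO and 5 WT each, and prefrontal cortex 4 KO and 4 WT, of which 1 KO and 2 WT were male.

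Excitatory neurons of the cortex are born in an inside-out order and settle in layers that send their axons to different targets. Upper-layer neurons connect cortical areas with each other, neurons of the granular layer receive thalamic input, and deep-layer neurons project to the brainstem, spinal cord and thalamus. Transcription factors fix these identities during development, and many stay on in the adult. The same factors are used elsewhere, so that none of the 9 genes is restricted to the cortex: hippocampal and basolateral amygdala neurons share much of the excitatory programme, while the striatum consists mostly of inhibitory projection neurons that do not transcribe Slc17a7.

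Among the 9 genes, Slc17a7 (VGLUT1, the vesicular transporter that loads glutamate into synaptic vesicles) and Neurod6 (a basic helix-loop-helix factor of postmitotic excitatory neurons) mark excitatory neurons of many layers. Factors of the Neurod6 class bind the E-box, written CANNTG, which reads the same on both strands. Tbr1 (a T-box factor of deep-layer and corticothalamic neurons) and Fezf2 (a zinc finger factor that specifies subcerebral projection neurons) are deep-layer regulators. The start regions of these 4 genes are shown because their RNA varied together, in the deeply sequenced regions, between libraries of a group, as described further on. They are RefSeq sequences of 300 bases on build GRCm38.p6, from 250 bases before to 50 bases after the annotated start, read 5′ to 3′ on the strand of the gene, with each E-box in capitals. The window of Slc17a7 is at chr7:45163671-45163970 on the plus strand, that of Neurod6 at chr6:55681214-55681513 on the minus strand, that of Tbr1 at chr2:61804203-61804502 on the plus strand, and that of Fezf2 at chr14:12345816-12346115 on the minus strand.
Slc17a7: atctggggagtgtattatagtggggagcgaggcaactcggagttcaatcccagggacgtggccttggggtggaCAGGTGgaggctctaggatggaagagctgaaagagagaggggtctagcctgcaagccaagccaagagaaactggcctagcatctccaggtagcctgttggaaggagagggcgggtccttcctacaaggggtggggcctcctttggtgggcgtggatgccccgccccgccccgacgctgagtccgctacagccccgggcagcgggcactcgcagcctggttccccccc
Neurod6: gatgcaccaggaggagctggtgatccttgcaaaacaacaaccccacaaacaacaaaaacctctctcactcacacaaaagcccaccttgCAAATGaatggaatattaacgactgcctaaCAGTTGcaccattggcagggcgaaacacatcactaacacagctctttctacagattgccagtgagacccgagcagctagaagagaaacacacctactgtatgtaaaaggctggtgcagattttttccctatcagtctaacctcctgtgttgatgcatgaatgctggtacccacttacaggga
Tbr1: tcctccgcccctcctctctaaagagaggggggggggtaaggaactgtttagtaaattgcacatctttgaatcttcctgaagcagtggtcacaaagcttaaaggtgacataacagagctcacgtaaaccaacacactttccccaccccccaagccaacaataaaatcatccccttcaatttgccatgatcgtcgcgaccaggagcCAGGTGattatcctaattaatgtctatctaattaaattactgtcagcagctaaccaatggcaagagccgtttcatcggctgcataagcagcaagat
Fezf2: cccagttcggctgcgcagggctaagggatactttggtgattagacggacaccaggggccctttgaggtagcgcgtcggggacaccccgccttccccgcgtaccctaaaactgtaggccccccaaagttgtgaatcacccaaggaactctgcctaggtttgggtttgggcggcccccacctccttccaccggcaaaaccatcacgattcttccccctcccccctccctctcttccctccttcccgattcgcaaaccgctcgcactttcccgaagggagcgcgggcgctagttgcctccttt
The Slc17a7 and Tbr1 windows each held 1 E-box, of the form CAGGTG in both, the Neurod6 window held 2, and the Fezf2 window held 0. Of 32851 RefSeq windows of this length, 72.3% held at least 1 E-box and 39.6% at least 2. The 4 windows differed in their number of CG pairs, with 20 in Fezf2, 13 in Slc17a7, 7 in Tbr1 and 3 in Neurod6, against a median of 7 over all windows. A matching RefSeq entry was used for 8 of the 9 genes, all but Nxph4. A motif match is a description of the letters in the window and says nothing of binding.

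The other 5 genes are layer markers. Cux1 and Cux2 encode homeodomain factors of upper-layer neurons. They lie on chromosome 5, at 136248135 to 136567490 and 121856366 to 122050102 (GENCODE gene models on GRCm38, both on the minus strand). Rorb, on chromosome 19 at 18930605 to 19111196, encodes a nuclear receptor of granular-layer neurons. Tle4, a Groucho-family co-repressor of deep-layer corticothalamic neurons, lies on the same chromosome at 14448150 to 14598051. Nxph4, on chromosome 10 at 127525473 to 127534559, encodes a secreted neurexin ligand of the deepest cortical neurons. Exons of an antisense gene overlap Cux1, and the strand setting of the counting is not given in the sources used here, so reads of that stretch cannot be assigned to one of them.

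Depth differed between 2 sets of regions. The 47 libraries of amygdala, dorsal hippocampus, dorsal striatum and ventral striatum held 4454420 to 14487778 counts, and the 31 libraries of cortex, prefrontal cortex and ventral hippocampus held 629635 to 1228828. A level of 3 counts corresponds to 0.207 to 0.673 CPM in the deeper set and to 2.44 to 4.76 CPM in the shallower one, a limit that covers counting error only. Sample numbers in the labels restart between these sets, so depth, number series and region cannot be told apart across them, and regions are tested only within a set. Acss2 lay at 0.971 to 13.96 CPM in the 40 KO libraries and at 35.9 to 73.8 CPM in the 38 WT libraries, with no overlap. The prefrontal library of mouse 23, labelled female WT, had 0 counts of Xist and 73.4 CPM of the Y-linked gene Ddx3y, which goes against its label.

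Several striatal libraries carried the cortical genes far above the rest of their region. A library was taken to stand apart when at least 5 of the 9 genes exceeded 2 times the median of its region with 10 counts or more. This held for 5 of 24 striatal libraries and for 0 of the amygdala, hippocampal, cortical and prefrontal libraries. The 5 were dorsal striatum of male KO mouse 10 with 7 genes, of female WT mouse 23 with 5 and of male WT mouse 3 with 5, and ventral striatum of male KO mouse 10 with 6 and of female WT mouse 24 with 5. Just outside, ventral striatum of male KO mouse 2 carried 4 genes, Fezf2, Tbr1, Neurod6 and Slc17a7.

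Slc17a7 in dorsal striatum stood at 1763 CPM in male KO mouse 10 and at 1856 CPM in female WT mouse 23, above every one of the 11 cortical libraries, and at 862 CPM in male WT mouse 3. The other 9 dorsal striatal libraries lay between 23.8 and 507 CPM with a median of 240.0. Tbr1 followed the same order, with 127 and 128 CPM in the first 2 libraries, 86.1 CPM in male WT mouse 3 and 1.26 to 39.004 CPM in the other 9. Tle4 went the other way: it was lowest in female WT mouse 23 (33.7 CPM) and male KO mouse 10 (49.1 CPM), whereas male WT mouse 3, at 120 CPM, lay within the 87.0 to 144 CPM of the rest.

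Cux2 separated these libraries further. It stood at 106 and 103 CPM in dorsal striatum of mice 10 and 23 but at 13.4 CPM in mouse 3, within the 8.88 to 28.1 CPM of the other dorsal striatal libraries. In mouse 3 the genes above 2 times the region median thus included Tbr1 and Slc17a7, while Cux2 and Tle4 were not raised. In ventral striatum of mouse 10, Cux2 reached 129 CPM and Rorb 49.99 CPM, against at most 56.1 and 34.2 CPM in the other 11 ventral striatal libraries. Nxph4 in that library, 1.56 CPM, was the lowest of the region.

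Markers of striatal projection neurons were low in some of these libraries and not in others. Over 9 such markers, among them the dopamine receptor genes Drd1 and Drd2, the mean log2(CPM + 1) was 4.88 in dorsal striatum of mouse 10 and 3.97 in that of mouse 23, and 8.46 to 9.46 in the other 10, with 0 of the 9 markers at 0 counts in either. Ppp1r1b, which encodes the striatal signalling protein DARPP-32, stood at 170 and 95.3 CPM in these libraries and at 1260 to 2559 CPM in the rest. Dorsal striatum of male WT mouse 3, by contrast, had a striatal marker mean of 8.46, and ventral striatum of female WT mouse 24 had 9.42, the highest of its region. In ventral striatum the marker mean was 6.29 in male KO mouse 10, 7.06 in female WT mouse 11 and 5.26 in male WT mouse 13, against 8.07 to 9.42 in the other 9. The ventral libraries of mice 11 and 13 were thus low in these markers without a rise of Slc17a7, which stood at 65.2 and 94.3 CPM there. What these libraries were dissected from was not tested.

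**Figure D1:**
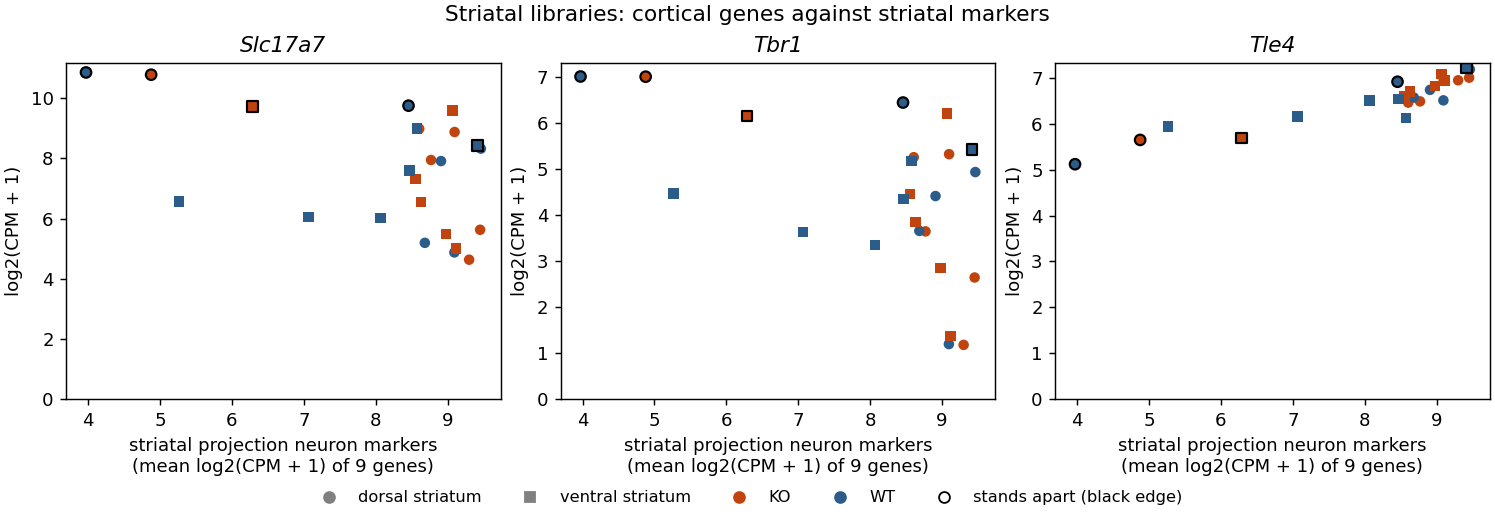
Level of Slc17a7, Tbr1 and Tle4, log2(CPM + 1) on the vertical axes, against the mean log2(CPM + 1) of 9 striatal projection neuron markers (horizontal axis) in the 24 striatal libraries: circles are dorsal and squares ventral striatum, orange is KO and blue WT, and a black edge marks the libraries that stand apart. Slc17a7 stood at 1763 and 1856 CPM in the 2 libraries with the lowest marker means, 4.88 and 3.97, where Tle4 was 49.1 and 33.7 CPM.

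Markers of the labelled region were also low in 4 hippocampal libraries, by a criterion chosen after the data were seen (a marker mean over 1 log2 unit below the median of the region). Over 6 hippocampal field markers the mean was 4.92 in dorsal hippocampus of female WT mouse 23 and 6.19 to 6.96 in the other 11. In ventral hippocampus it was 3.24 in male KO mouse 10, 3.93 in female KO mouse 6 and 4.38 in male WT mouse 3, against 4.85 to 6.15 in the other 9. The library of female KO mouse 6 also had 1079 CPM of Ppp1r1b, against 32.9 to 65.2 CPM in the other ventral hippocampal libraries. With the striatal ones, 9 libraries met the criterion. Without them, the mean of Slc17a7 was 1352 CPM in dorsal and 1317 CPM in ventral hippocampus, 278 CPM in dorsal and 245 CPM in ventral striatum, and that of Neurod6 was 192, 164, 26.2 and 12.5 CPM in the same order. The libraries that stand apart were chosen for high values of the 9 genes themselves, so values without them are given as a description with no test. Tests without libraries rest on the marker criterion, which is not independent of that choice. Dorsal striatum of male KO mouse 10 and of female WT mouse 23 and ventral striatum of male KO mouse 10 met both criteria. What leaving out libraries high in the 9 genes added to such calls was not tested.

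Among the members, dorsal hippocampus of female WT mouse 23 stood out most. Its Slc17a7 was 417 CPM and its Neurod6 70.4 CPM, below the other 11 libraries at 1019 to 1622 and 118 to 289.8 CPM. Its Cux2 (50.2 CPM), Rorb (35.7 CPM) and Nxph4 (9.61 CPM) were the highest of the region, the next values being 31.01, 24.01 and 6.06 CPM. In the amygdala, too, Cux2 (154 CPM), Rorb (66.2 CPM) and Tbr1 (107 CPM) were highest in female WT mouse 23.

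The 9 genes followed different regional orders. In bulk RNA, more cells of a type and more RNA per cell cannot be told apart, so levels describe the tissue and not the cells. Slc17a7 was highest in prefrontal cortex, 1510 ± 138 CPM (SD, n = 8), and cortex, 1401 ± 131 CPM (SD, n = 11). It reached 1274 ± 327 and 1257 ± 307 CPM in dorsal and ventral hippocampus (SD, n = 12 each) and 1151 ± 480 CPM in amygdala (SD, n = 11), so these 5 regions did not differ from their neighbours in the order beyond their spread. Dorsal striatum, 533 ± 646 CPM (SD, n = 12), ranged from 23.8 through a median of 283 to 1856 CPM, and ventral striatum, 267 ± 288 CPM (SD, n = 12), from 31.3 through 127 to 842 CPM. Without the libraries that stand apart, the means were 213 CPM in dorsal and 202 CPM in ventral striatum.

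Neurod6 was highest in the hippocampus, with 182 ± 62.7 CPM dorsally and 157 ± 84.6 CPM ventrally (SD, n = 12 each). The ventral range ran from 87.4 through a median of 122 to 334 CPM. Prefrontal cortex held 80.6 ± 31.4 CPM (SD, n = 8), cortex 58.5 ± 16.5 CPM (SD, n = 11) and amygdala 55.7 ± 47.9 CPM (SD, n = 11), where single libraries lay between 7.32 and 161 CPM. In the striatum the range was 0.645 to 93.8 CPM dorsally and 0.688 to 52.7 CPM ventrally, so that neighbours in this order overlapped throughout.

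Among the upper-layer genes, cortex stood highest. Cux1 was 142 ± 16.9 CPM in cortex (SD, n = 11), from 121 to 167 CPM, and 96.7 ± 11.7 CPM in ventral striatum, the next region, without overlap of the SD bands. Prefrontal cortex, 64.4 ± 20.9 CPM, was only the fifth, below both striatal regions. Cux2 ran from 99.6 through 172 to 231 CPM in cortex, from 57.1 through 88.0 to 222 CPM in prefrontal cortex and from 22.2 through 47.5 to 154 CPM in amygdala. Its mean in dorsal striatum was 31.7 CPM with all libraries and 17.6 CPM without those that stand apart, which moved that region from the sixth to the lowest place.

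Rorb was high in cortex and low elsewhere. Its 11 cortical libraries lay between 54.4 and 76.2 CPM with a mean of 64.96 ± 7.85 CPM (SD, n = 11), while the means of the other 6 regions lay between 16.7 and 20.6 CPM. Only 1 library outside the cortex, amygdala of female WT mouse 23 at 66.2 CPM, entered the cortical range. Prefrontal cortex, with 9.66 through 16.9 to 43.3 CPM, was no higher in Rorb than the hippocampal regions.

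Of the deep-layer regulators, Tbr1 was highest in cortex and prefrontal cortex and Fezf2 was not. Tbr1 was 117 ± 18.6 CPM in cortex (SD, n = 11) and 116 ± 29.7 CPM in prefrontal cortex (SD, n = 8), above the SD band of ventral hippocampus at 53.1 ± 26.3 CPM. Amygdala held 48.1 ± 26.8 and dorsal hippocampus 45.04 ± 12.9 CPM. Fezf2 was highest in prefrontal cortex, 55.0 ± 27.5 CPM (SD, n = 8), then in ventral hippocampus, 41.03 ± 29.2 CPM, dorsal hippocampus, 31.6 ± 19.4 CPM, and amygdala, 27.8 ± 12.2 CPM. Cortex, 17.7 ± 6.70 CPM (SD, n = 11), and ventral striatum, 3.66 ± 3.02 CPM (SD, n = 12), lay below these. Neighbours in the Fezf2 order did not differ beyond their spread.

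Tle4 was highest in the striatum, and the order of Nxph4 rested on 1 library. Tle4 was highest in dorsal striatum, 98.8 ± 32.4 CPM, and ventral striatum, 95.6 ± 30.03 CPM (SD, n = 12 each), and lowest in cortex, 37.4 ± 11.45 CPM (SD, n = 11). Nxph4 was low everywhere: cortical libraries held 0 to 3 counts, prefrontal libraries 2.12 through a median of 7.58 to 15.8 CPM, and amygdala ranged from 2.13 through a median of 5.15 to 41.9 CPM. The amygdala mean of 10.1 CPM was the highest with all libraries, but without male WT mouse 12 it was 6.87 CPM, below the 7.92 CPM of prefrontal cortex. Ventral striatum, with 1.56 through 6.71 to 13.4 CPM, was above the 0.89 through 2.16 to 8.47 CPM of dorsal striatum at each of these points of the range.

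Compared per kilobase of exons, the members differed widely in the cortex. Slc17a7 stood at 260 CPM per kb, Neurod6 at 27.2, Tbr1 at 21.4 and Cux2 at 16.8 CPM per kb. Cux1 had 7.08, Tle4 6.55, Rorb 5.87, Fezf2 5.81 and Nxph4 0.753 CPM per kb.

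**Figure D2:**
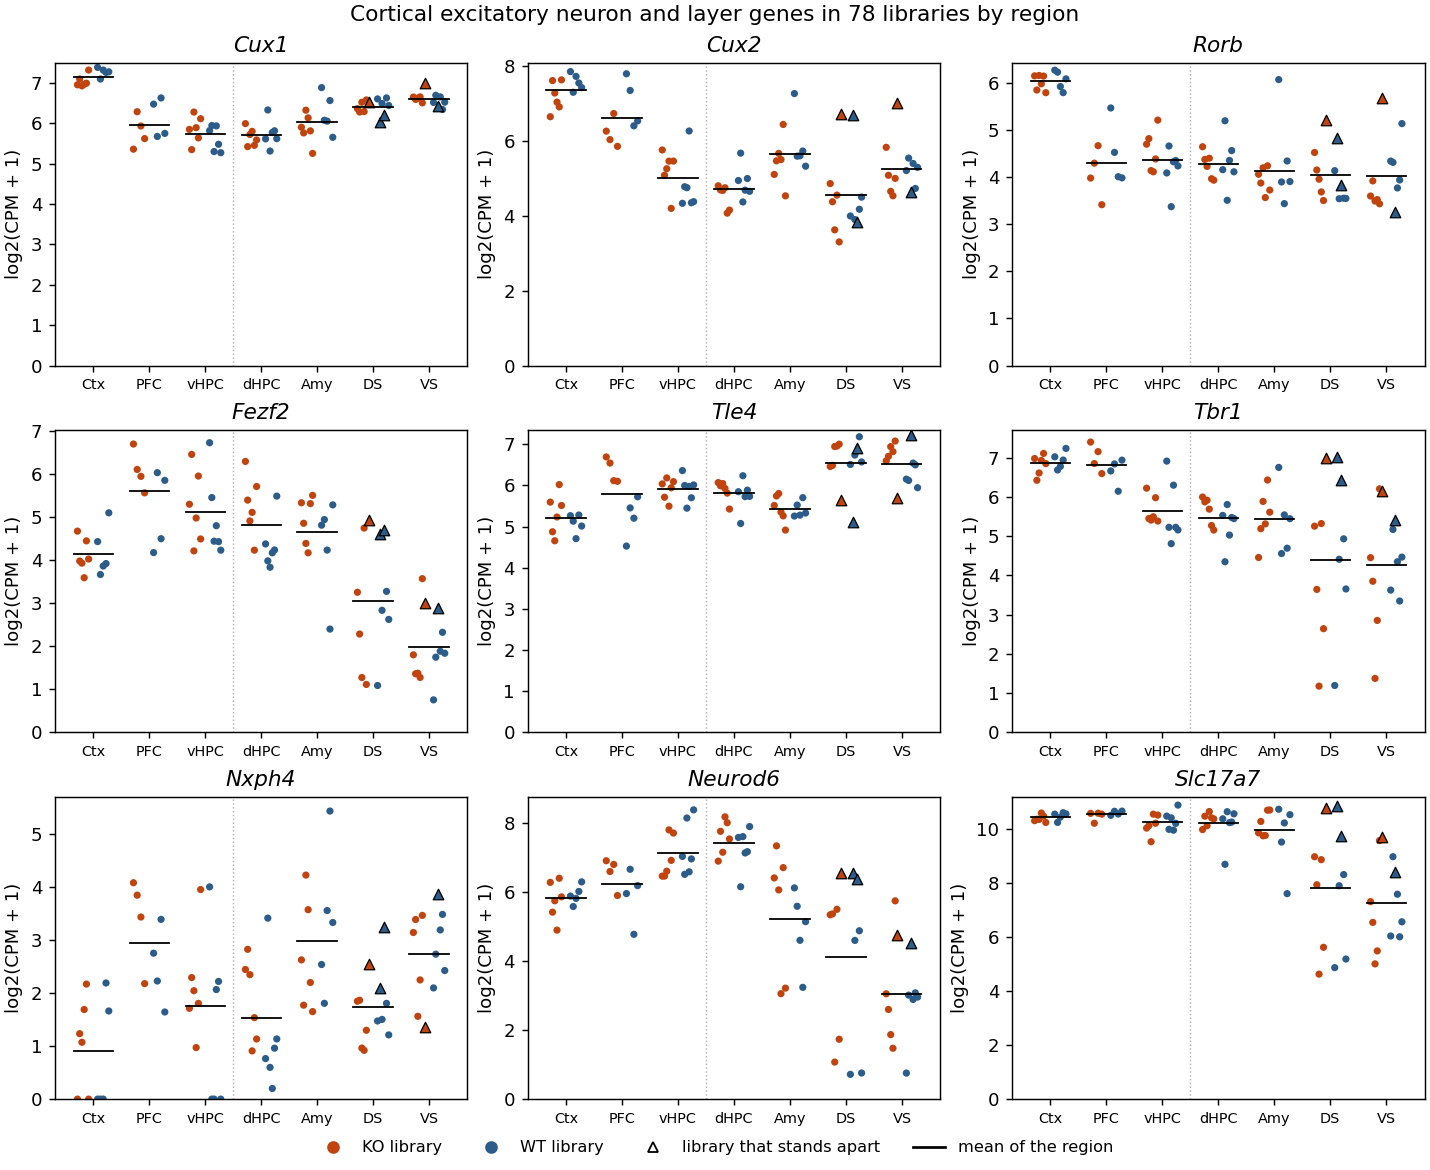
Level of each of the 9 genes (one panel each, log2(CPM + 1) on the vertical axis) in every library of the 7 regions (horizontal axis: Ctx cortex, PFC prefrontal cortex, vHPC and dHPC ventral and dorsal hippocampus, Amy amygdala, DS and VS dorsal and ventral striatum), orange for KO and blue for WT; black lines are the mean of the log values of a region, triangles are the libraries that stand apart, and a dotted line separates the sets with separate sample numbers. Rorb is set apart in cortex (54.4 to 76.2 CPM), Tle4 is highest in the striatal regions, and Slc17a7 ranges from 23.8 to 1856 CPM in dorsal striatum.

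Within the shallower set, cortex and prefrontal cortex differed in 5 genes of the layers, and the difference passed for neither pan-excitatory gene. By edgeR's quasi-likelihood test with Benjamini-Hochberg adjustment over all genes tested, 5 of 8 members passed between cortex and prefrontal cortex, where 39.4% of all genes did. Nxph4 was too low to be tested in this set. Rorb was higher in cortex by 1.78 ± 0.18 on the log2 scale (SE, adjusted p = 3.94e-09), Cux1 by 1.21 ± 0.14 (adjusted p = 5.48e-08) and Cux2 by 0.81 ± 0.22 (adjusted p = 0.00314). Fezf2 was higher in prefrontal cortex (log2 difference -1.41 ± 0.33, SE, adjusted p = 0.0008). Tle4 was also higher there (-0.57 ± 0.19, SE, adjusted p = 0.0159), a call that was lost without female KO mouse 4, 5 or 6 (edgeR adjusted p = 0.0555, 0.0844 and 0.0534). By genotype, Tle4 averaged 82.7 CPM in the 4 KO and 38.2 CPM in the 4 WT prefrontal libraries, against 40.8 and 33.2 CPM in KO and WT cortex. Striatal markers were higher in the same KO prefrontal libraries (marker mean 5.82 to 7.41 against 3.88 to 4.89 in WT), and their part in the Tle4 difference was not tested. Values for Slc17a7 (-0.05 ± 0.10), the deep-layer gene Tbr1 (0.14 ± 0.18) and Neurod6 (-0.39 ± 0.29) did not pass. With no filter on low counts Neurod6 did (-0.40, edgeR adjusted p = 0.00932).

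A list of 34 other cortical excitatory neuron genes was read beside these. Between cortex and prefrontal cortex, 10 of 32 tested were higher in cortex and 6 in prefrontal cortex, where 39.4% of all genes were called in either direction. Of the upper-layer genes 3 of 6 were higher in cortex and 0 in prefrontal cortex, and both tested granular-layer genes were higher in cortex. Among the 8 tested genes of the deepest layer and subplate, 5 were higher in prefrontal cortex and 0 in cortex, and no test compared the layers. Lamp5, an upper-layer gene, was higher in cortex by 1.69 ± 0.22, while Syt6, a corticothalamic gene, was higher in prefrontal cortex (log2 difference -2.07 ± 0.37, SE).

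Ventral hippocampus differed from both cortical regions. Against it, cortex was higher in Cux2 (2.37 ± 0.21 on the log2 scale, SE), Rorb (1.72 ± 0.16), Cux1 (1.43 ± 0.13) and Tbr1 (1.21 ± 0.17), and lower in Neurod6 (-1.38 ± 0.25), Fezf2 (-1.13 ± 0.31) and Tle4 (-0.68 ± 0.17). These were 7 of 8 members called, where 29.3% of all genes were. Prefrontal cortex was higher than ventral hippocampus in Cux2 (1.56 ± 0.24) and Tbr1 (1.07 ± 0.19) and lower in Neurod6 (-0.99 ± 0.27), which made 3 of 8 against 30.9% of all genes. Slc17a7 missed the threshold there at 0.26 ± 0.10 (edgeR adjusted p = 0.0549) and passed with the mouse as a block (0.30, adjusted p = 0.0305). Without the 3 ventral hippocampal libraries low in hippocampal markers, Cux1 was also higher in prefrontal cortex (0.38, edgeR adjusted p = 0.0416). Those 3 libraries held 76.8, 68.4 and 60.4 CPM of Cux1, against 37.7 to 60.7 CPM in the other ventral hippocampal libraries. The criterion screened no prefrontal library, and what this removal on the hippocampal side alone added to the call was not tested.

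In the deeper set, amygdala and dorsal hippocampus differed in Neurod6 and 4 layer genes. Amygdala was higher in Nxph4 (1.78 ± 0.50 on the log2 scale, SE), Cux2 (1.03 ± 0.34) and Cux1 (0.33 ± 0.12), and lower in Neurod6 (-1.78 ± 0.58) and Tle4 (-0.48 ± 0.18), 5 of 9 members where 39.1% of all genes were called. The Slc17a7 value, -0.22 ± 0.53, did not pass, with single amygdala libraries from 196 to 1721 CPM. The Cux1 call was lost without mouse 6 or 12 and the Tle4 call without mouse 1, 3 or 4.

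Both striatal regions were lower in the excitatory genes and higher in Tle4 and Cux1. Against dorsal striatum, dorsal hippocampus was higher in Neurod6 (2.31 ± 0.57), Fezf2 (1.50 ± 0.41) and Slc17a7 (1.45 ± 0.53) and lower in Tle4 (-0.77 ± 0.17) and Cux1 (-0.68 ± 0.11), 5 of 9 members where 54.7% of all genes were called. Tbr1 stood at 0.30 with all libraries and at 1.43 without those that stand apart, and Cux2 at -0.15 and 0.56, shifts that follow the choice of libraries high in these genes. Without the libraries low in the markers of their region, Tbr1 (1.02, edgeR adjusted p = 0.0604) and Cux2 (0.53, adjusted p = 0.0503) did not pass. Against ventral striatum, dorsal hippocampus was higher in Neurod6 (4.07 ± 0.63), Fezf2 (3.21 ± 0.47) and Slc17a7 (2.63 ± 0.56). It was lower in Nxph4 (-1.31 ± 0.49), Cux1 (-0.83 ± 0.12) and Tle4 (-0.71 ± 0.17), which made 6 of 9 against 53.9% of all genes. The Nxph4 call was lost without mouse 2 or 24. Tbr1 stood at 1.01 ± 0.49 (edgeR adjusted p = 0.0775) and passed with the mouse as a block (1.27, adjusted p = 0.0285) and without mouse 2, 10 or 23. Without the libraries low in the markers of their region, Rorb passed (0.66, edgeR adjusted p = 0.0172) and Tbr1 did not (1.07, adjusted p = 0.0603). The ventral striatal libraries left out were the highest there in Rorb, at 49.99, 34.2 and 19.3 CPM against at most 18.9 CPM in the rest. The dorsal hippocampal library left out, of female WT mouse 23, was also the highest of its region (35.7 CPM). What these removals added to the Rorb call was not tested.

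Amygdala compared in much the same way with the striatum. It was higher than dorsal striatum in Nxph4 (1.76 ± 0.49), Fezf2 (1.25 ± 0.41), Slc17a7 (1.23 ± 0.54) and Cux2 (0.88 ± 0.34) and lower in Tle4 (-1.25 ± 0.18) and Cux1 (-0.35 ± 0.12), 6 of 9 members where 55.6% of all genes were called. The Slc17a7 call sat at the threshold (edgeR adjusted p = 0.0489) and was lost without any one of mice 1, 2, 4, 5, 6, 11, 12, 13 and 24, and the Cux2 call was lost without mouse 2, 3, 6 or 12. Without the libraries low in the markers of their region it passed (1.95, edgeR adjusted p = 0.00158), as did Cux2 (1.66, adjusted p = 1.28e-07), whereas Tbr1 (0.92, adjusted p = 0.0870) and Neurod6 (0.97, adjusted p = 0.156) did not. Without those that stand apart, which were high in both genes by choice, Tbr1 stood at 1.44 and Neurod6 at 1.48. Against ventral striatum, amygdala was higher in Fezf2 (2.97 ± 0.47), Slc17a7 (2.41 ± 0.56) and Neurod6 (2.29 ± 0.63) and lower in Tle4 (-1.18 ± 0.18) and Cux1 (-0.50 ± 0.12), 5 of 9 members against 46.9% of all genes. Without the libraries low in striatal or hippocampal markers, Cux2 (0.73, edgeR adjusted p = 0.00865) and Rorb (0.62, adjusted p = 0.0260) were called. Tbr1 (0.98, adjusted p = 0.0883) was not, and leaving out mouse 10 alone also called Cux2 (0.79). The criterion screened no amygdala library and kept that of female WT mouse 23. This was the highest of its region in Cux2 (154 CPM) and Rorb (66.2 CPM). It left out the highest ventral striatal library in both genes, male KO mouse 10 (129 and 49.99 CPM). What this removal on the striatal side alone added to the calls of either pair was not tested.

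Between the striatal regions, the called genes depended on a few libraries. With all libraries, Fezf2 (1.71 ± 0.47, edgeR adjusted p = 0.0121) and Neurod6 (1.76 ± 0.61, adjusted p = 0.0444) were higher in dorsal striatum, 2 of 9 members where 13.7% of all genes were called. Without the libraries low in the markers of their region both calls were lost (Fezf2 1.21, edgeR adjusted p = 0.0979, Neurod6 1.16, adjusted p = 0.226), and Cux2 (-0.93, adjusted p = 0.00528) and Nxph4 (-1.89, adjusted p = 0.00579) were higher in ventral striatum instead, where 24.2% of all genes were called. The dorsal libraries left out, of mice 10 and 23, held 106 and 103 CPM of Cux2, against at most 28.1 CPM in the rest. Of the ventral ones, that of male KO mouse 10 was the highest in Cux2 (129 CPM) and the lowest in Nxph4 (1.56 CPM). What these removals added to the Cux2 and Nxph4 calls was not tested. Without the 5 libraries that stand apart the values were 1.17 for Fezf2, 1.04 for Neurod6, -0.95 for Cux2 and -1.84 for Nxph4. With the mouse as a block, Neurod6 (1.77, edgeR adjusted p = 0.0686) was not called. The Neurod6 call was also lost without any one of mice 1, 3, 4, 5, 6, 10, 12 and 23, and Nxph4 was called without mouse 3, 10 or 23.

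**Figure D3:**
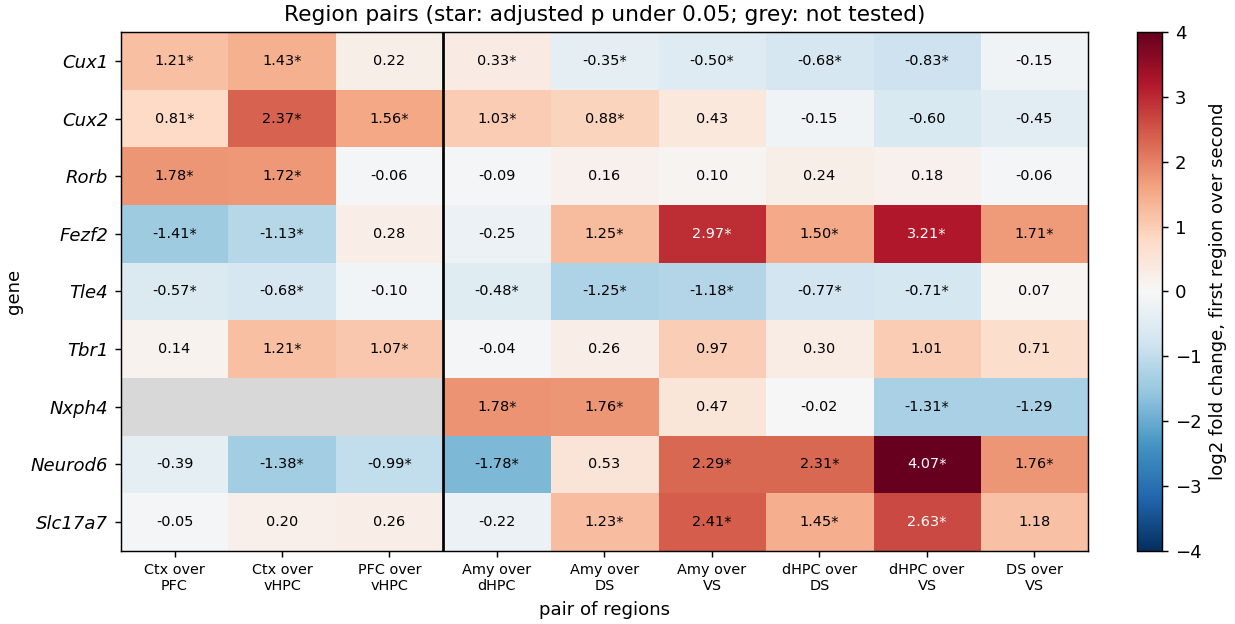
Heat map of log2 differences between regions from edgeR, for 9 genes (rows) and 9 region pairs (columns) within the 2 sets; the first-named region of a pair is higher where the value is positive, stars mark an adjusted p under 0.05 with all libraries, and grey cells were not tested. Rorb has stars only in the pairs of cortex with prefrontal cortex (1.78) and ventral hippocampus (1.72), and Neurod6 reaches 4.07 in dorsal hippocampus over ventral striatum.

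Genotype was compared within each sex and region, in 13 comparisons. Members were called in female prefrontal cortex alone, where Cux2 was lower and Tle4 higher in KO. Cux2 stood at 76.0, 64.8 and 106 CPM in female KO mice 4, 5 and 6 and at 222 CPM in female WT mouse 11 and 163 CPM in the library labelled female WT mouse 23, whose Xist and Ddx3y levels go against that label. All 3 KO values lay below both WT values, and Cux2 fell by 1.25 ± 0.21 on the log2 scale (SE, edgeR's quasi-likelihood test, Benjamini-Hochberg adjusted p = 0.0171). Tle4 stood at 102, 92.3 and 68.4 CPM in KO and at 22.04 and 42.8 CPM in the same 2 WT libraries, again without overlap, and rose by 1.46 ± 0.27 (SE, edgeR adjusted p = 0.0315). These were 2 of 9 members, where 50 of 11056 genes, or 0.452%, were called.

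Both calls rested on few mice. Without female WT mouse 11 or female KO mouse 4 or 5 they were lost, with edgeR adjusted p = 0.113, 0.101 and 0.161 for Cux2 and 0.279, 0.132 and 0.230 for Tle4. The values stayed in the same direction, at -0.98, -1.19 and -1.11 for Cux2 and 1.01, 1.34 and 1.42 for Tle4. The number of genes called in this comparison ranged from 3 to 373 over the alternatives. Ranges of KO and WT were apart for 4 of 9 members, Tle4, Tbr1 and Nxph4 above and Cux2 below, while this held for 23.3% of all genes. Leaving out either WT library leaves a single one, assumed to vary like the KO ones. Without the library labelled female WT mouse 23, Cux2 and Tle4 remained called and Fezf2 was called as well (2.12, edgeR adjusted p = 0.00102).

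In the male prefrontal libraries, 1 KO against 2 WT, the single KO value lay outside the WT values in both genes. How many of all genes did the same was not counted. Male KO mouse 1 had 67.6 CPM of Tle4, above the 35.9 and 51.9 CPM of male WT mice 3 and 12, and 57.1 CPM of Cux2, below their 84.0 and 92.1 CPM. No male test was possible with 1 KO library, so no conclusion is drawn from these male values. Over both sexes the 4 KO values of Tle4 lay above all 4 WT values, a separation that 3.91% of all genes showed. Cux2 did not separate so, since female KO mouse 6 at 106 CPM exceeded both male WT libraries.

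With sex as a term, 0 of 9 members were called in prefrontal cortex by edgeR's test, where 11 of 11894 genes, or 0.0925%, were. Cux2 stood at -1.04 ± 0.19 (SE, edgeR adjusted p = 0.0519) and Tle4 at 1.15 ± 0.24 (SE, edgeR adjusted p = 0.0707). The DESeq2 Wald test called both, with adjusted p = 0.00654 for Cux2 and 0.0309 for Tle4. Without the library labelled female WT mouse 23, edgeR called Cux2 (-1.12, adjusted p = 0.0259), and it was also called without male mouse 1, 3 or 12, and Tle4 without male mouse 12.

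Over both sexes together, Fezf2 and Nxph4 did not separate by genotype. In the libraries labelled female, the KO values of Nxph4 did lie above both WT values, as given above. Fezf2 stood at 103, 68.4, 61.0 and 46.6 CPM in KO mice 4, 5, 6 and 1 and at 17.1, 64.9, 21.7 and 57.2 CPM in the libraries labelled WT mice 11, 23, 3 and 12. Nxph4 stood at 15.8, 13.3, 9.77 and 3.51 CPM in these KO mice and at 5.71, 3.67, 9.44 and 2.12 CPM in the WT mice. In both genes the 2 sets of values overlapped.

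Of the 34 other cortical genes, 32 were tested in female prefrontal cortex and 1 was called, Rprm, a gene of the deepest cortical neurons. It stood at 168, 101 and 105 CPM in KO mice 4, 5 and 6 and at 27.8 and 40.4 CPM in the libraries labelled WT mice 11 and 23, a rise of 1.87 ± 0.27 (SE, edgeR adjusted p = 0.00738). The male values did not follow, with 43.04 CPM in KO mouse 1 between the 82.6 and 24.5 CPM of WT mice 12 and 3. With both sexes 1 of 32 was called, Foxp2, a forkhead factor of corticothalamic and striatal neurons. Foxp2 stood at 27.5, 55.0, 26.9 and 38.7 CPM in KO mice 4, 5, 6 and 1 and at 7.35, 11.01, 12.7 and 8.49 CPM in the libraries labelled WT mice 11, 23, 12 and 3, a rise of 1.9597 ± 0.31 (SE, edgeR adjusted p = 0.024). All 9 listed genes of the deepest layer and subplate had positive values in female prefrontal cortex, with a median of 1.48, and 0 of 6 upper-layer genes did, with a median of -0.52, beside a median of -0.0037 over all genes tested.

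Markers of other cells moved with genotype in the same libraries. The striatal marker mean was 5.82 to 7.41, as log2(CPM + 1), in the 4 KO prefrontal libraries and 3.88 to 4.89 in the 4 WT ones, without overlap. Ppp1r1b stood at 233, 592, 230.3 and 423 CPM in KO mice 4, 5, 6 and 1 and at 49.0, 116, 46.2 and 102 CPM in the libraries labelled WT mice 11, 23, 3 and 12. In female prefrontal cortex 2 of 9 striatal markers and 8 of 9 oligodendrocyte markers were higher in KO by edgeR's test, where 0.452% of all genes were called, and all 9 of each list had positive values. With both sexes 5 of 9 striatal markers and 0 of 9 oligodendrocyte markers were called, and the 5 were among the 11 genes called in all (0.0925%). The oligodendrocyte mean was 8.27 to 8.99 in female KO, 6.90 in male KO mouse 1 and 6.35 to 7.18 in WT. The cortical excitatory marker mean overlapped, at 6.72 to 7.12 in KO and 6.58 to 7.56 in WT. The part of these markers in the Cux2 and Tle4 differences was not tested.

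**Figure D4:**
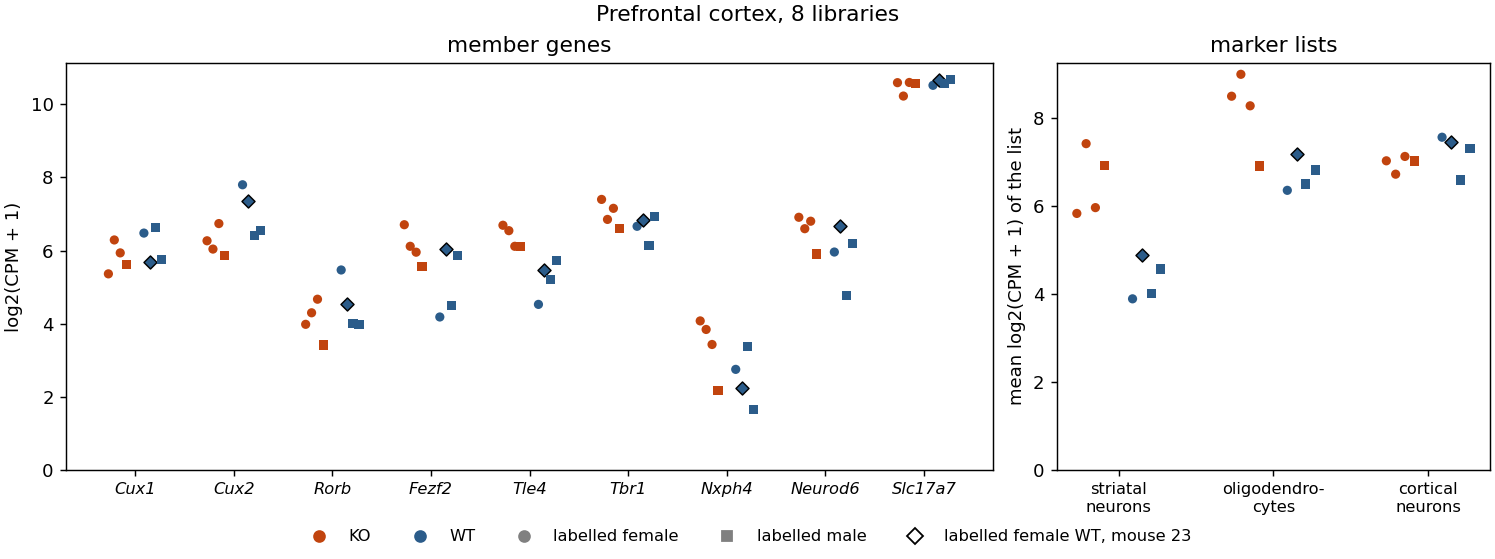
Level in each of the 8 prefrontal libraries, log2(CPM + 1) on the vertical axes, of the 9 genes (left) and as the mean of 3 marker lists (right, named on the horizontal axis); orange is KO and blue WT, circles are labelled female and squares male, and the diamond is the library labelled female WT mouse 23. Tle4 is higher in every KO library (67.6 to 102 CPM) than in every WT library (22.04 to 51.9 CPM), and so is the striatal marker mean (5.82 to 7.41 against 3.88 to 4.89).

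A difference between prefrontal cortex and cortex in the genotype effect was tested directly. For Tle4 the term was 0.85 ± 0.32 on the log2 scale (SE, edgeR adjusted p = 0.602), and 0 of 9 members passed by edgeR's or the DESeq2 Wald test. Among all 11819 genes, 1 was called, or 0.00846%, and it was the striatal gene Ppp1r1b. The effects in prefrontal cortex were thus not shown to differ from those in cortex. In cortex with both sexes, where 0.00947% of genes were called, Cux2 was 150 ± 40.6 CPM in KO (SD, n = 6) and 192 ± 29.8 CPM in WT (SD, n = 5), and its value of -0.37 ± 0.15 did not pass (edgeR adjusted p = 0.747).

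In the other 12 comparisons by sex 0 members were called by edgeR's test, with 0 to 2 members in each at an unadjusted p under 0.05, where 1.91% to 10.6% of all genes were, and the DESeq2 Wald test called 0 as well. Of all genes, edgeR called 0.0398% in female cortex, 0.00707% in female dorsal hippocampus and 0.00993% in female ventral hippocampus. Without the libraries low in hippocampal markers it called 1.17% in female dorsal hippocampus, 0.0191% in female ventral hippocampus and 0.737% in male ventral hippocampus, with 1, 0 and 0 members among them. With all libraries it called, in males, 0.0103% in cortex, 0.00721% in dorsal hippocampus, 0.00996% in ventral hippocampus and 0.00706% in amygdala. It called 0 genes in female amygdala and in either striatal region of either sex. Acss2 itself was thus not called there, although it lay at 0.971 to 13.96 CPM in KO and 35.9 to 73.8 CPM in WT libraries. A count of 0 in these comparisons therefore does not show that the members were unchanged. Ranges of KO and WT were apart for few members: Rorb below in female cortex (27.2% of all genes), Fezf2 and Tbr1 above in female dorsal hippocampus (5.71%) and Cux2 above in female ventral hippocampus (9.55%). Of the 34 other cortical genes, 0 were called in any of these 12 comparisons. With sex as a term, 5 more regions were tested: dorsal hippocampus, ventral hippocampus, amygdala, dorsal striatum and ventral striatum. Neither edgeR nor the DESeq2 Wald test called a member there. In each of these 5 regions the one gene that edgeR called was Acss2, or 0.0069%, 0.00929%, 0.00657%, 0.00689% and 0.00708% of all genes.

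Female dorsal hippocampus held the clearest of these. Fezf2 stood at 77.9, 41.3 and 29.2 CPM in KO mice 4, 5 and 6 and at 19.9, 14.9 and 13.3 CPM in WT mice 11, 23 and 24. The value of 1.59 ± 0.38 did not pass over all genes (edgeR adjusted p = 1), and the male libraries overlapped, with 33.7, 17.9 and 51.7 CPM in KO mice 1, 2 and 10 and 17.1, 17.9 and 44.1 CPM in WT mice 3, 12 and 13. Without the library of WT mouse 23, whose hippocampal markers were low, Nxph4 was called (2.89, edgeR adjusted p = 0.0388), as part of a rise in all genes called from 1 to 167, or 1.17%. That library held the highest Nxph4 of the region, 9.61 CPM, against at most 6.06 CPM in the rest. The next WT library of either sex held 1.19 CPM. Its removal left only WT mice 11 and 24, and what it added to the Nxph4 call was not tested.

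In ventral striatum Slc17a7 had a positive value in males and a negative one in females, and neither passed. It stood at 44.1, 768 and 842 CPM in male KO mice 1, 2 and 10 and at 193, 63.9 and 94.3 CPM in male WT mice 3, 12 and 13. In females it stood at 159, 92.8 and 31.3 CPM in KO mice 4, 5 and 6 and at 65.2, 507 and 343 CPM in WT mice 11, 23 and 24. The KO and WT values overlapped in both sexes. Male KO mouse 10 and female WT mouse 24 are libraries that stand apart, male KO mouse 2 lay just outside that criterion, and male KO mouse 10 was also low in striatal markers (mean 6.29). Neither 2.27 ± 0.91 in males nor -1.77 ± 0.76 in females passed (edgeR adjusted p = 0.497 and 1). In male ventral striatum 9.84% of all genes had an unadjusted p under 0.05, as had 1 of 9 members.

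The difference between the sexes in ventral striatum was -4.02 ± 1.36 for Slc17a7 (SE, edgeR adjusted p = 0.943), and with no filter on low counts it passed (-4.03, adjusted p = 0.0397). In the filtered edgeR fits with all libraries, 0 members and 0 genes were called over 6 regions for a sex difference in the genotype effect. The DESeq2 Wald test called 0 members too.

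**Figure D5:**
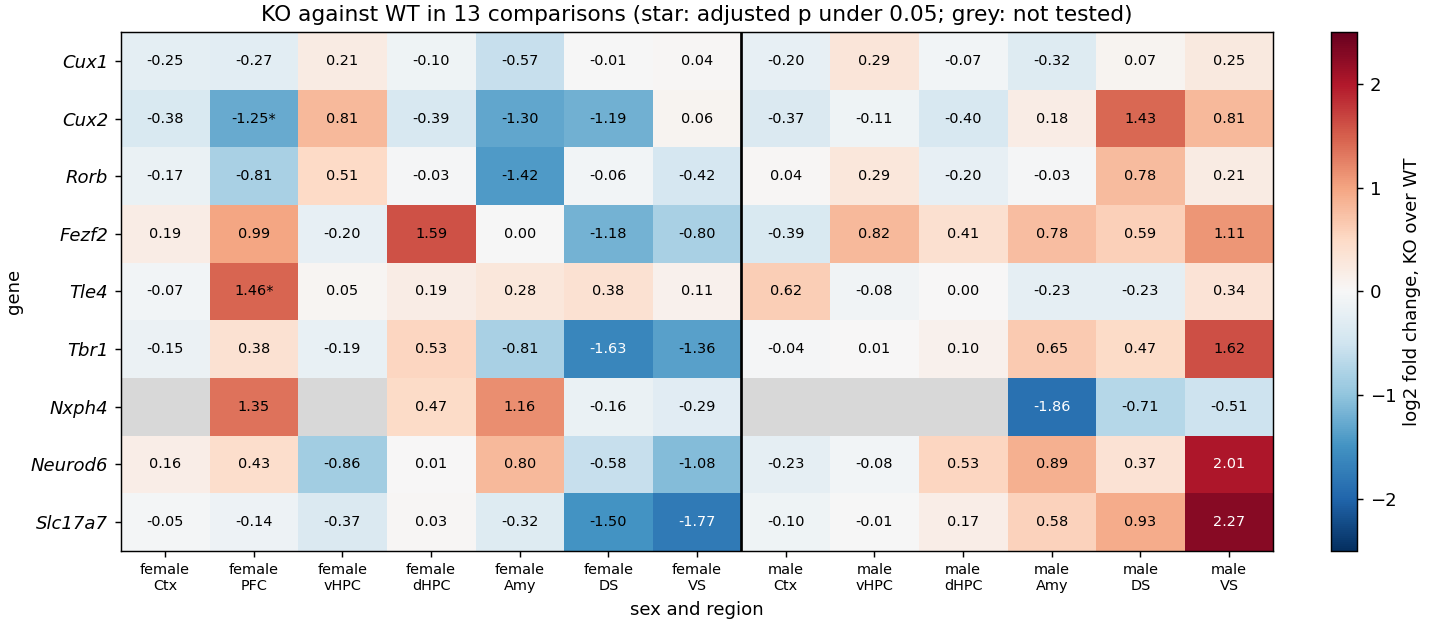
Heat map of log2 differences of KO over WT from edgeR for the 9 genes (rows) in the 13 comparisons by sex and region (columns); grey cells were too low to test and stars mark an adjusted p under 0.05. The stars are on Cux2 (-1.25) and Tle4 (1.46) in female prefrontal cortex, and ventral striatum shows positive male and negative female values of Slc17a7.

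Between libraries of the same group, several members varied together in the deeper set. Over the 47 libraries of the deeper set, deviations of log2(CPM + 1) from the group mean correlated at r = 0.93 between Tbr1 and Slc17a7, at 0.91 between Neurod6 and Slc17a7 and at 0.82 between Fezf2 and Slc17a7, the genes whose start regions are printed above. Cux2 correlated with Rorb (r = 0.78) and also with Tbr1 (0.66) and Slc17a7 (0.55), and Tle4 ran against Cux2 and Rorb (r = -0.74 with each). Over 30 libraries of the shallower set most of these were weak: Slc17a7 gave r = 0.02 with Tbr1, 0.17 with Fezf2 and 0.53 with Neurod6, and Cux2 gave 0.11 with Rorb. The points share libraries and dissections, and no test was made. In the deeper set, Slc17a7 varied most within groups of the striatum. Its SD on this scale was 2.57 in dorsal and 1.60 in ventral striatum, against 0.557 in dorsal hippocampus and 0.976 in amygdala. That of Tbr1 was 2.21 and 1.39, against 0.432 and 0.805. The libraries that stand apart, chosen for joint high values of these genes, are among the 47, and their part in r was not tested. Within dorsal striatum Neurod6 and Slc17a7 reached r = 0.98 (12 libraries), whereas in cortex (11 libraries) Slc17a7 gave r = -0.17 with Neurod6 and 0.38 with Tbr1, and Fezf2 gave 0.87 with Tbr1.

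Genes with the most similar pattern were sought over all 78 libraries among 11758 genes with a mean of at least 5 CPM, by Pearson's r of log2(CPM + 1). Slc17a7 was closest to Cck (0.946), Rtn4r (0.931) and Neurod2 (0.931), and Neurod6 to Neurod2 (0.903), Dkk3 and Nptx1. Tbr1 was closest to Ipcef1 (0.910), Vxn and Efhd2, Fezf2 to Galnt9 (0.909), Rtn4rl2 and Dyrk2, and Tle4 to Kcnab1 (0.869), Mctp1 and Stk26. Cux1 was closest to Lrrc49 (0.866), Mapk6 and Ptgfrn, Cux2 to Lasp1 (0.876), Olfm2 and Fhod3, and Rorb to Cdk16 (0.867), Scrt1 and Nudt4. Nxph4 had no gene as near, Cgn being first (0.678), before Cntnap4 and Adar. These values describe shared patterns over libraries that differ in region and depth.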

How the data were processed

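Counts of 55367 genes were analysed as deposited in 2 tables, one for each sex, from poly(A) RNA-seq of 78 libraries made from 300 ng of total RNA each. The authors' whole-number counts per gene were made, per the submitters' processing notes, with tools that include STAR 2.5.2a, SAMtools 1.1, HTSeq 0.6.1, DESeq2 and R 4.0.2, on GRCm38 (mm10). The annotation, the strand setting and the filters are not given in the sources used here. Libraries held 629635 to 14487778 counts. No replicate pair of 73 was identical.

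Column totals gave CPM. Tests used edgeR 4.0.16 (quasi-likelihood, TMM, filterByExpr) with limma 3.58.1 in R 4.3.3, with Benjamini-Hochberg adjustment over all genes tested and a threshold of 0.05. Alternatives were DESeq2 1.42.0 (size factors and the Wald test), no filter on low counts, each mouse left out, the mouse as a block, and libraries left out, those low in the markers of their region by a choice made after the data were seen. The tests recovered known changes in simulated counts of independent libraries, for a single comparison of each kind of test. The simulation held no shared mice, no libraries low in region markers and not the female prefrontal comparison. P-values of the genotype tests within a region measure the spread between mice, dissection included. The region pairs and the test of prefrontal cortex against cortex had no mouse term in the main fits. Their p-values measure the spread between libraries, several of which come from the same mouse. Named genes were the 9 members, the 3 genes most like each, called genes of a list of other cortical genes, and Acss2, Xist and Ddx3y as checks. Not every gene of the marker lists is reported here. The members and lists were chosen with earlier results of these data known.

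Libraries of different regions with the same mouse number come from the same animal, per the mouse identity in the labels. Deviations from group means correlated within a mouse at a mean r of 0.0481 over 69 pairs in the deeper set, with pairs from -0.42 to 0.63. In the shallower set the mean r was -0.0187 over 24 pairs, from -0.15 to 0.12. KO and WT mice share no number.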

Additional observations from a re-analysis of the deposited data

Results flagged for a closer look

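Within each genotype of a region, the highest or lowest library of a member was set against the spread of the others by Dixon's criterion at the 95% level, for which chance alone gives about 1 in 20 groups. Of 126 groups of 4 to 6 libraries, 24 had such a library, 22 of them high and 2 low.

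Dorsal striatum of male KO mouse 10 was far above the other KO libraries in Cux2 (106 CPM), Tbr1 (127 CPM) and Slc17a7 (1763 CPM). Ventral striatum of the same mouse was far above them in Cux1 (127 CPM), Cux2 (129 CPM) and Rorb (49.99 CPM). Dorsal striatum of female WT mouse 23 was far above the other WT libraries in Cux2 (103 CPM) and Rorb (27.4 CPM), and that of male WT mouse 3 in Nxph4 (8.47 CPM). Ventral striatum of female WT mouse 24 was highest in Tle4 (148 CPM) and Neurod6 (22.2 CPM).

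Amygdala of female WT mouse 23 was far above the other 4 WT libraries in Cux2 (154 CPM), Rorb (66.2 CPM) and Tbr1 (107 CPM), and that of male WT mouse 12 in Nxph4 (41.9 CPM). Dorsal hippocampus of female WT mouse 23 was highest in Cux2 (50.2 CPM) and Nxph4 (9.61 CPM) and lowest in Slc17a7 (417 CPM), and that of male WT mouse 13 was highest in Fezf2 (44.1 CPM).

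In ventral hippocampus, Nxph4 was far above the rest in male KO mouse 10 (14.4 CPM), Cux2 in male WT mouse 3 (76.2 CPM), and Fezf2 (106 CPM) and Nxph4 (14.95 CPM) in female WT mouse 11. In prefrontal cortex, Slc17a7 of female KO mouse 5 (1199.5 CPM) was far below the other KO libraries.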

How the results depend on the processing

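Of 36 comparisons, 22 kept the same number of called members under every alternative run, all of them at 0, and in 30 the number stayed within 1.5 times that with all libraries. Of 4366 fits of a member under an alternative, 4273 kept their side of the threshold, 44 lost the call and 48 gained it. Among those that stayed uncalled, 335 changed sign. Only 1 changed sign as a call: Cux2 in dorsal hippocampus over dorsal striatum, 0.56 without the libraries that stand apart. Those libraries were chosen for high values of the 9 genes. All 63 mean levels moved by less than 1 SD with TMM library sizes. Called members in female prefrontal cortex ranged from 0 to 3 with each mouse left out, and in prefrontal cortex of both sexes from 0 to 2. In that comparison 1 member was called with DESeq2 size factors, 3 with no filter, 2 by the DESeq2 Wald test and 1 without the library labelled female WT mouse 23. In female dorsal hippocampus 1 was called without the libraries low in the markers of their region, and 0 to 1 with each mouse left out. With no filter, 1 was called in female ventral hippocampus (Neurod6, -0.87) and 1 for the sex difference in ventral striatum. Between the striatal regions 1 to 2 members were called with each mouse left out. With the mouse as a replicate block 1 member was called there, and beside the calls named in the text the block changed no other. At 3 times the region median, 1 library stood apart in place of 5. Counts of all genes called also moved: 1209 to 3554 between the striatal regions (2003 as reported) and 7 to 367 in prefrontal cortex of both sexes (11 as reported). Where not shown by the libraries left out, the cause was not tested. Depth limits Nxph4 most, which had 0 to 3 counts in cortical libraries.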
